A study of Mus musculus with 15 samples.

Results

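The liver miRNAs compared here are those of mice under caloric restriction (CR) and of mice on standard diet (SD). A miRNA was included when the scanner software called it detected on all 5 CR arrays or on all 5 SD arrays, which held for 172 of the 696 miRNAs on the array. Of these, 139 were detected on all 10 arrays, 21 on all SD arrays but not on all CR arrays, and 12 on all CR arrays but not on all SD arrays. All mice were male, of the strain written B6C57/J in the labels, and entered the diets at 1 year of age. SD mice ate the AIN-93G diet ad libitum, CR mice received the same diet with 40% fewer calories, and both groups stayed on their diet for life. The age at which the livers were taken is not given in the sources used here. A further 5 mice, fed AIN-93G ad libitum with 0.1% w/w metformin (Met), are used only for the spread between mice and for the position of the arrays. Each mouse gave 1 liver RNA sample and 1 array, so the 5 arrays of a group are 5 mice.

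miRNAs are short RNAs that are cut from hairpin precursors by DROSHA in the nucleus and by DICER in the cytoplasm. The mature strand is loaded into an Argonaute protein and pairs with target mRNAs mainly through its seed, bases 2 to 8 from the 5′ end, so that miRNAs with the same seed are treated as a family. Many miRNA genes lie in clusters and are cut from a shared transcript. In the liver, miR-122 is the dominant miRNA of hepatocytes, and it is known for its roles in lipid metabolism.

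The sequences that carry the comparison are shown here, as the RefSeq entries for build GRCm38.p6 give them, 5′ to 3′ with the seed in capitals. The let-7 family is shown because its members share a seed and differ elsewhere, while their differences between CR and SD ran from positive to negative.
let-7a-5p: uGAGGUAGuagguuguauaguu
let-7b-5p: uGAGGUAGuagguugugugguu
let-7c-5p: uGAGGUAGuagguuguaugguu
let-7d-5p: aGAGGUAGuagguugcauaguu
let-7e-5p: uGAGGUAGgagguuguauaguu
let-7f-5p: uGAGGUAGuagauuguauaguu
let-7g-5p: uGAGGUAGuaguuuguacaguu
let-7i-5p: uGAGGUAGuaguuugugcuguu
miR-98-5p: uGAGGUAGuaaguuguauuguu

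The miR-29, miR-101, miR-148 and miR-15/16 groups are shown because they hold many of the miRNAs that were lower in CR.
miR-29a-3p: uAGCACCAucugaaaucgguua
miR-29b-3p: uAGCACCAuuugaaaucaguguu
miR-29c-3p: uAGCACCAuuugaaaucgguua
miR-101a-3p: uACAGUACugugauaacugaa
miR-101b-3p: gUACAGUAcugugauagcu
miR-148a-3p: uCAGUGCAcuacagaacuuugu
miR-148b-3p: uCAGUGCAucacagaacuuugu
miR-152-3p: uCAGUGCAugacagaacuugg
miR-15a-5p: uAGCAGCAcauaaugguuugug
miR-16-5p: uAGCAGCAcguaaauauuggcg

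The last set holds the members of the miR-17 cluster, both arms of the miR-193a hairpin, and the separate miRNAs with large or well separated differences.
miR-17-5p: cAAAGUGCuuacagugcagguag
miR-17-3p: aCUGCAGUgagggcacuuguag
miR-20a-5p: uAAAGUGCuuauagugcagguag
miR-19b-3p: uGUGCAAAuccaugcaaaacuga
miR-92a-3p: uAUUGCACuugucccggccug
miR-193a-5p: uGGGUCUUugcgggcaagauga
miR-193a-3p: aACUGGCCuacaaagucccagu
miR-21a-5p: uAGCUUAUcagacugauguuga
miR-192-5p: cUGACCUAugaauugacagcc
miR-194-5p: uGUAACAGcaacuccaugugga
miR-99b-5p: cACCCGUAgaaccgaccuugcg
miR-423-5p: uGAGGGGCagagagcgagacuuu

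The values are z-scores. The natural log of each spot's signal was centred on the mean of all spots of its array and divided by their SD, so that a difference of 1 in z-score is 1 SD of the array's log signals and every level is relative to its own array. Slide 1 carried every SD array and Met mice 1 to 3, and slide 2 every CR array and Met mice 4 and 5, so that diet and slide cannot be told apart between CR and SD except through the Met arrays. CR mice 2 and 3 stood apart from the other arrays. The 75th percentile of their detected probe signals was 174 and 144, against 246 to 344 for the other CR mice and 311 to 432 for SD mice, and 167 and 151 miRNAs were detected. The other CR mice had 184 to 198 detected miRNAs and SD mice 170 to 205. Bright corner control spots, which carry no miRNA probe, had z-scores of -0.0521 to 0.0248 on CR arrays and 0.146 to 1.55 on SD arrays, and on the Met arrays of slide 2 they were 0.677 and 0.707. The part of these array differences in the results was not tested. Counts are given below without CR mice 2 and 3 and with the slide in the model, and most named falls also with their value without those mice.

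Relative to the other spots of its array, miR-148a-3p, miR-29b-3p, miR-101b-3p, miR-192-5p and miR-21a-5p were lower in CR livers, and let-7b-5p, miR-92a-3p and miR-455-3p were higher. On this scale more miRNAs fell than rose, and those that fell did so by more. At a Benjamini-Hochberg adjusted p of 0.05 or less (limma, 1 fit over all 15 arrays), 30.9% of the 178 miRNAs tested were called, 12.4% higher in CR and 18.5% lower. When limma was fitted to the SD and CR arrays only, 5 of the miRNAs named above did not pass. They were miR-148a-3p, miR-192-5p, miR-21a-5p, let-7b-5p and miR-92a-3p (adjusted p = 0.0539, 0.0734, 0.0519, 0.109 and 0.0805). In that fit miR-29b-3p, miR-101b-3p and miR-455-3p still passed. Of the 172 miRNAs described here, the fit over all 15 arrays called 21 higher and 33 lower. Of these, 16 and 22 were detected on all 10 arrays. The other 5 that were higher lacked detection on some SD arrays, and the other 11 that were lower on some CR arrays. Those were included only through the group in which they are high. The median difference was 0.100 in z-score among the 21 higher and -0.458 among the 33 lower, against -0.0161 over all miRNAs tested. Groups that did not overlap, with every CR mouse on the same side of every SD mouse, were found for 11.2% of the miRNAs tested, and among the called ones for 6 of those higher and 14 of those lower. The split between rises and falls depended on the scaling: of all miRNAs tested it was 22 and 33 with z-scores over all spots, 41 and 24 when the z-scores were taken over detected miRNAs, 48 and 23 with quantile normalization, 15 and 8 with the total gene signal and 75 and 25 with the 75th percentile of detected probes. The last of these moved the median difference of all miRNAs tested to 0.31 on the log2 scale, and the total gene signal moved it to 0.14. The direction of the called miRNAs was the same under all 8 ways of scaling the arrays for all 21 that were higher and for 30 of the 33 that were lower.

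**Figure D1:**
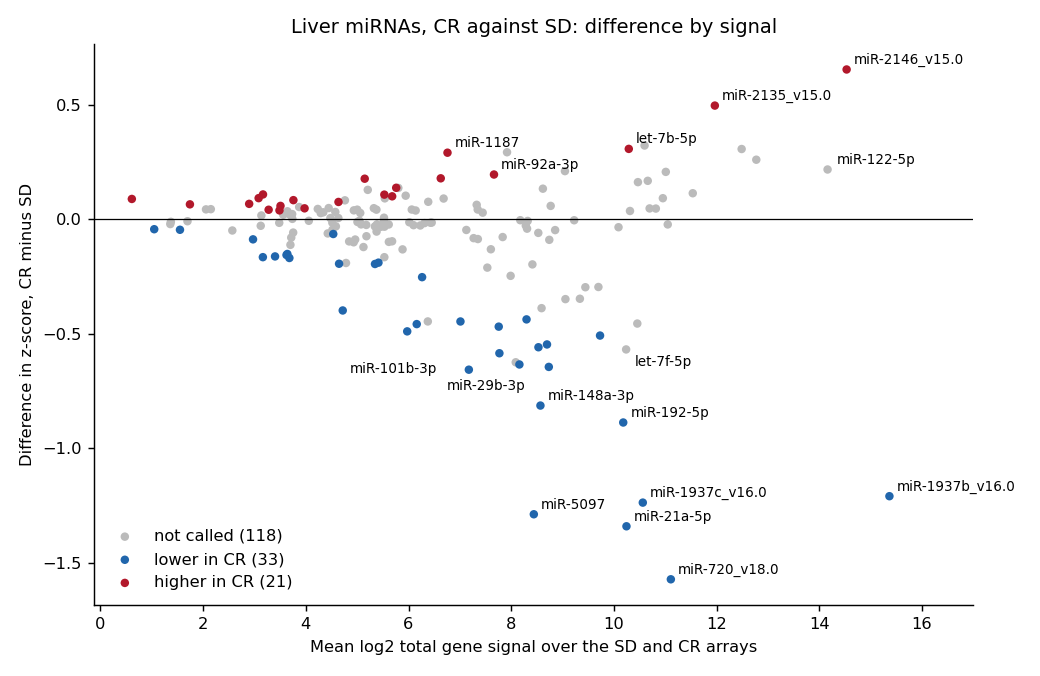
Difference in z-score, CR minus SD (y axis), against the mean log2 total gene signal over the SD and CR arrays (x axis) for the 172 miRNAs, with the 21 called higher in CR in red, the 33 called lower in blue and the 118 not called in grey. The falls reach -1.57 and the rises 0.654, and the widest differences of either sign lie at higher signal.

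The size of the falls rested on CR mice 2 and 3. In 30 of the 33 lower miRNAs these 2 mice were the lowest of the CR mice, and in all 33 they lay below every SD mouse, while CR mice 1, 4 and 5 all lay below every SD mouse in 14. Among the 21 higher miRNAs, CR mice 2 and 3 were the highest of the CR mice in 11. Without these mice every called miRNA kept its direction, and an adjusted p of 0.05 or less remained for 6 of those higher (miR-92a-3p, miR-99b-5p, miR-139-5p, miR-193a-5p, miR-338-5p and miR-452-5p) and 4 of those lower (miR-29b-3p, miR-101a-3p, miR-101b-3p and miR-680). With all mice and the total gene signal, miR-99b-5p and miR-452-5p did not pass (limma adjusted p = 0.0918 for each), and nor did any of the 4. When 1 mouse at a time was left out, the call held for 6 of those higher and 16 of those lower whichever mouse it was, and 14 and 16 calls were lost without CR mouse 2, 10 and 12 without CR mouse 3 and 9 and 13 without SD mouse 3. With the slide as a term in the model, every called miRNA also kept its direction but none kept its call. The only call with the slide was miR-342-3p, with an adjusted p of 0.0403, and 32 of the 172 were at an unadjusted p of 0.05 or less.

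Of the 3 members of the miR-148 family, 2 were lower, miR-148a-3p and miR-152-3p, against 18.5% of all miRNAs tested. They share the seed CAGUGCA and are known to target the DNA methyltransferase mRNA Dnmt1. The z-score of miR-148a-3p in SD mice 1 to 5 was 1.79, 1.82, 2.04, 1.81 and 2.0, and in CR mice 1 to 5 it was 1.73, 0.455, 0.272, 1.28 and 1.64. The groups did not overlap, although CR mouse 1 lay just under the lowest SD mouse. The difference was -0.813 ± 0.230 (SE, n = 5 mice per group, adjusted p = 0.0196 from limma). With CR mice 2 and 3 left out it was -0.337, with an adjusted p of 0.0703, and the call was also lost without CR mouse 2 alone (adjusted p = 0.0558). miR-152-3p also had groups that did not overlap, with SD mice at 0.0546 ± 0.0533 and CR mice at -0.114 ± 0.111 (mean ± SD), a difference of -0.169 and an adjusted p of 0.0154, but it was detected on 3 of 5 CR arrays, and without CR mice 2 and 3 the difference was -0.0957 (adjusted p = 0.129). miR-148b-3p, with the same seed, differed by -0.00668 (adjusted p = 0.764).

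The miR-29 family, known to target collagen mRNAs, had 2 of 3 members lower, against 18.5% of all miRNAs tested. miR-29b-3p was at 1.5, 1.43, 1.42, 1.33 and 1.26 in SD mice and at 1.13, 0.452, 0.115, 0.939 and 1.14 in CR mice. Every CR mouse was below every SD mouse, and the difference of -0.634 ± 0.161 (adjusted p = 0.0154) was -0.319 without CR mice 2 and 3, with an adjusted p of 0.0346. miR-29c-3p fell by 0.546 ± 0.182 (adjusted p = 0.0365), but CR mouse 1 at 1.72 and CR mouse 5 at 1.69 lay within the SD range of 1.66 to 1.95, and without CR mice 2 and 3 the difference was -0.188 (adjusted p = 0.192). miR-29a-3p was at 2.95 ± 0.182 in SD and at 3.00 ± 0.206 in CR, a difference of 0.0474 ± 0.118 with an adjusted p of 0.796. Counted from 1 at the 5′ end, miR-29a-3p and miR-29c-3p differ by a single substitution, C10U, so their probes may share signal, which was not tested. miR-29b-3p and miR-29c-3p, which were both lower, are encoded side by side by Mir29b-2 and Mir29c on chromosome 1, at chr1:195037091-195037113 and chr1:195037600-195037621 (GRCm38.p6, plus strand). miR-29b-3p also comes from Mir29b-1, next to Mir29a on chromosome 6, so the cluster of origin cannot be read from the mature strand.

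miR-101a-3p and miR-101b-3p, which repress the histone methyltransferase mRNA Ezh2, were lower with no overlap between groups. In the RefSeq entries miR-101b-3p starts 1 base earlier, so their seeds by position are ACAGUAC and UACAGUA. miR-101b-3p was at 0.976, 1.09, 1.15, 1.07 and 1.01 in SD mice and at 0.854, -0.0294, -0.0756, 0.554 and 0.706 in CR mice. The difference was -0.656 ± 0.149 (adjusted p = 0.0102), and -0.354 without CR mice 2 and 3 (adjusted p = 0.0272). miR-101a-3p was at 0.486 ± 0.0439 in SD and 0.0877 ± 0.269 in CR, with a difference of -0.398 ± 0.0959 (adjusted p = 0.0119), and of -0.208 without CR mice 2 and 3 (adjusted p = 0.0370). It was not detected in CR mice 2 and 3.

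miR-192-5p and miR-194-5p, which are cut from a shared transcript of Mir194-2 and Mir192 on chromosome 19 and are abundant in liver and gut, were both lower. miR-192-5p was at 2.85, 2.96, 3.27, 2.94 and 3.14 in SD mice and at 2.91, 1.23, 1.36, 2.43 and 2.79 in CR mice. CR mice 2 and 3 were far below the SD range, and CR mouse 1 was within it. The difference of -0.887 ± 0.273 (adjusted p = 0.0257) was -0.319 without those mice, with an adjusted p of 0.116. miR-194-5p fell by 0.508 ± 0.180 (adjusted p = 0.0440), and by 0.164 without those mice (adjusted p = 0.335). RefSeq lists a further locus for miR-194-5p, Mir194-1 on chromosome 1.

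miR-21a-5p, a miRNA induced in many forms of tissue injury, had the largest fall of any miRNA without a release suffix in its name. It was at 2.96, 3.51, 3.57, 3.52 and 3.26 in SD mice and at 3.07, 0.838, 0.883, 2.40 and 2.93 in CR mice. CR mouse 1 was above SD mouse 1, so the groups overlapped. The difference was -1.34 ± 0.373 (adjusted p = 0.0191), and without CR mice 2 and 3 it was -0.564 (adjusted p = 0.0703). On the log2 scale of the software's total gene signal, centred on the median of each array, the difference was -1.52 (adjusted p = 0.0540).

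The miR-15/16 family, known for repressing cell cycle mRNAs such as those of the D-type cyclins, had 2 of 5 members lower and none higher, against 18.5% lower and 12.4% higher over all miRNAs tested. miR-15a-5p differed by -0.585 ± 0.176 (adjusted p = 0.0241) and miR-16-5p by -0.437 ± 0.156 (adjusted p = 0.0440). In both, CR mice 1 and 5 lay within the SD range, and neither call held without CR mice 2 and 3, where the differences were -0.241 (adjusted p = 0.161) and -0.150 (adjusted p = 0.372). The miR-30 family, with 3 members of the seed GUAAACA that have a RefSeq sequence, had 1 lower, miR-30e-5p. Its difference was -0.446 ± 0.116 (adjusted p = 0.0154), with SD mice at 0.807 ± 0.0432, CR mice at 0.361 ± 0.326 and no overlap, and without CR mice 2 and 3 it was -0.219 (adjusted p = 0.0629). miR-26b-5p fell by 0.559 ± 0.189 (adjusted p = 0.0390), and without those mice its difference was -0.188 (adjusted p = 0.294). miR-34a-5p, a target of p53, was at 0.161 ± 0.121 in SD and -0.0288 ± 0.0546 in CR, a difference of -0.189 ± 0.0612 (adjusted p = 0.0317). Here CR mice 2 and 3 were close to the other CR mice, and without them the difference was -0.158 (adjusted p = 0.185). miR-802-5p, which is raised in livers of obese mice, differed by -0.165 ± 0.0385 (adjusted p = 0.0106) with no overlap, and was detected on 3 of 5 CR arrays. It differed by -0.119 without CR mice 2 and 3 (adjusted p = 0.0894).

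**Figure D2:**
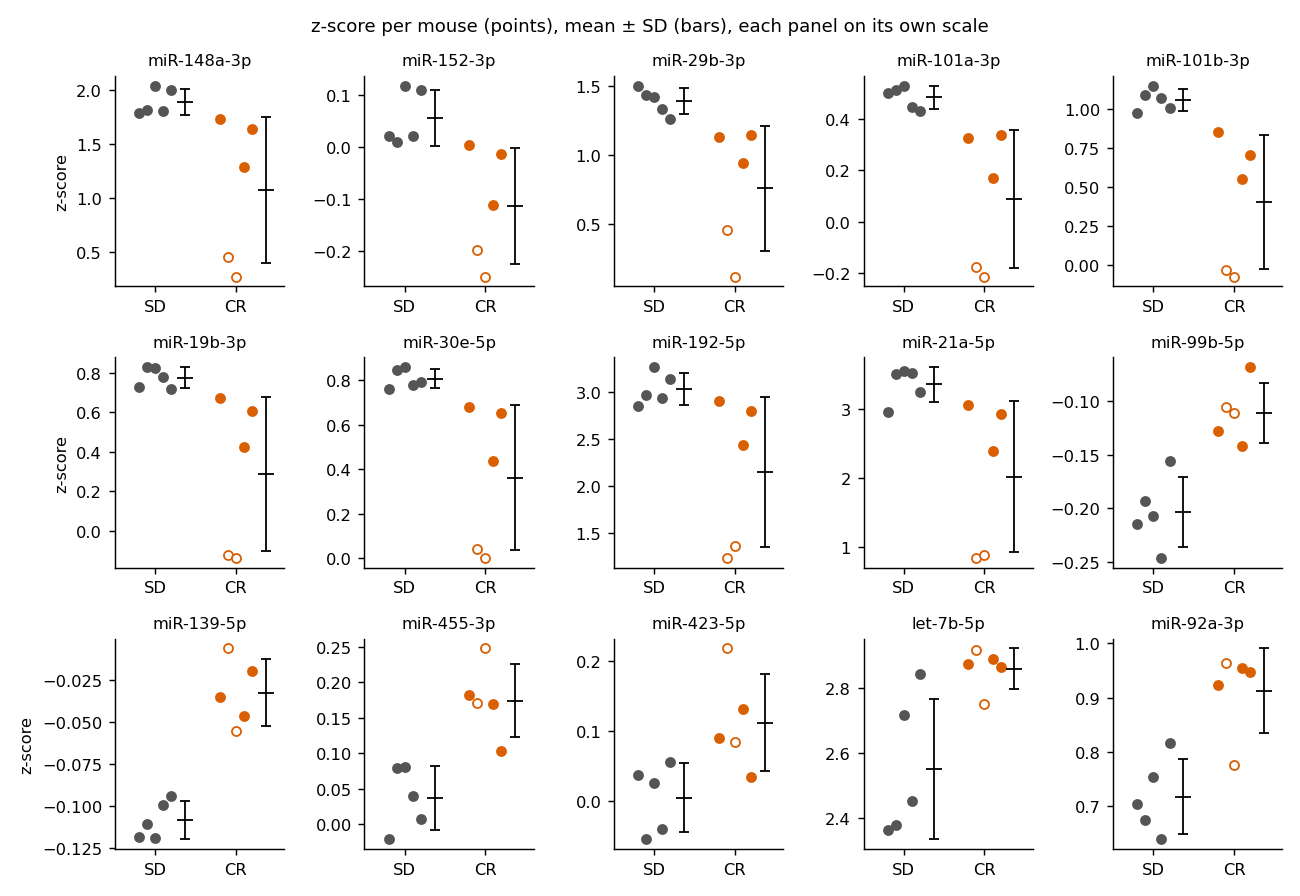
z-score of 15 miRNAs in each mouse (points; y axis, on a separate scale in each panel) for SD and CR, with the mean ± SD of 5 mice beside them. Open points are CR mice 2 and 3, which lie lowest in each of the panels of the miRNAs that fell; for let-7b-5p CR mouse 3, at 2.75, lies within the SD range of 2.36 to 2.84.

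Among the miRNAs that rose, the best separated were dim. miR-139-5p was at -0.119, -0.111, -0.119, -0.0994 and -0.0940 in SD mice and at -0.0354, -0.00637, -0.0558, -0.0468 and -0.0198 in CR mice. The groups did not overlap and CR mice 2 and 3 were the highest and the lowest of the CR mice, with a difference of 0.0756 ± 0.0168 (adjusted p = 0.00966). miR-455-3p, encoded in an intron of the collagen gene Col27a1, was at 0.0371 ± 0.0445 in SD and at 0.175 ± 0.0518 in CR, with a difference of 0.137 ± 0.0337 (adjusted p = 0.0126) and no overlap. Without CR mice 2 and 3 its difference was 0.114 (adjusted p = 0.0703), and with the slide in the model 0.207 ± 0.0574 (adjusted p = 0.0948). miR-99b-5p, at chr17:17830194-17830215 (GRCm38.p6, plus strand) and just before let-7e, was at -0.203 ± 0.0329 in SD and at -0.111 ± 0.0277 in CR. Its difference of 0.0922 ± 0.0186 (adjusted p = 0.00932) was 0.0906 without CR mice 2 and 3 (adjusted p = 0.0346). miR-99b-5p was not detected on all SD arrays, so it was included only through CR, where it is high. With the total gene signal its difference was 2.46 on the log2 scale and did not pass (adjusted p = 0.0918). miR-338-5p had the smallest adjusted p of all, 0.00180, with SD mice at -0.249 ± 0.00878 and CR mice at -0.166 ± 0.0304. Its difference was only 0.0835, and with the slide in the model it was 0.0702 ± 0.0234 and did not pass (limma adjusted p = 0.198). miR-423-5p rose by 0.108 ± 0.0364 (adjusted p = 0.0390), with CR mouse 5 inside the SD range, and by 0.0811 without CR mice 2 and 3, which did not pass (adjusted p = 0.168).

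Differences this small have to be read against miRNAs with no signal. The 470 miRNAs detected on none of the 15 arrays had a median difference of 0.0284, with a range of -0.0133 to 0.0612. Without a filter on detection, 162 of them were called higher in CR and 0 lower by limma. Of the 21 miRNAs that rose, 4 (miR-17-3p, miR-193a-5p, miR-744-5p and miR-770-3p) differed by no more than the highest of these, and 17 by more. For the 4, a rise cannot be told apart from the shift of miRNAs that gave no signal. Whether the other 17 rose beyond this shift was not tested. Of them, miR-452-5p (0.0652) and miR-181a-5p (0.0673) lay just above the highest undetected difference.

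The let-7 family, which promotes differentiation and represses growth genes such as Lin28 and Ras, had 9 members, of which 1 rose and none fell. Over all miRNAs tested 12.4% were higher, so 1 of 9 is near the background. let-7b-5p was at 2.36, 2.38, 2.72, 2.45 and 2.84 in SD mice and at 2.87, 2.92, 2.75, 2.89 and 2.86 in CR mice. Of the CR mice only mouse 3 was not above every SD mouse, and the difference was 0.307 ± 0.109 (adjusted p = 0.0438). Without CR mice 2 and 3 it was 0.323 (adjusted p = 0.0981), and when the log signals were centred but not divided by the SD of the array it was 0.114 (adjusted p = 0.601). The call held in 4 of the 10 fits that left out 1 mouse. let-7f-5p had the opposite sign, with SD mice at 2.64, 2.66, 3.09, 2.61 and 3.10 and CR mice at 2.76, 1.47, 1.75, 2.47 and 2.82. Its difference of -0.568 ± 0.224 did not pass the limit (adjusted p = 0.0598), and it was -0.140 without CR mice 2 and 3. Between these, the differences were 0.162 for let-7c-5p, 0.103 for let-7e-5p, 0.0468 for let-7a-5p, -0.00425 for let-7d-5p, -0.0309 for miR-98-5p, -0.0863 for let-7i-5p and -0.296 for let-7g-5p, none of which passed. Relative to let-7a-5p, counted from 1 at the 5′ end, let-7b-5p carries A17G and A19G, let-7c-5p carries A19G, let-7f-5p carries G12A and let-7g-5p carries G12U and U18C. Members this close may share signal on the array, which was not tested. let-7b and let-7c-2 lie in a cluster on chromosome 15, while let-7f-1 lies with let-7d and let-7a-1 on chromosome 13.

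**Figure D3:**
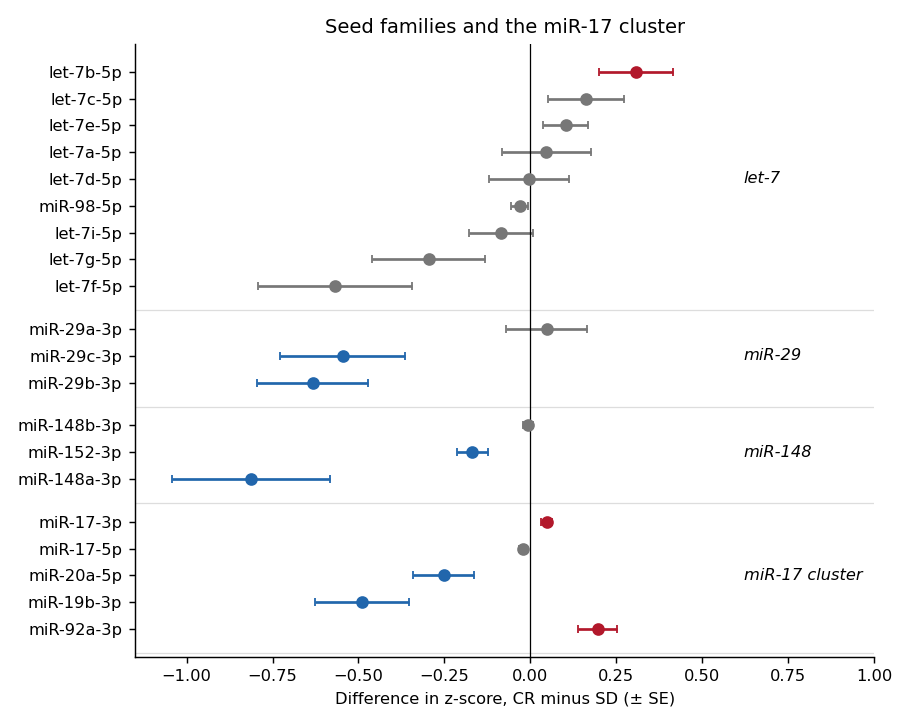
Difference in z-score, CR minus SD (x axis, ± SE from limma), for the members of the let-7, miR-29 and miR-148 seed families and of the miR-17 cluster, with miRNAs called higher in red, lower in blue and not called in grey. In the let-7 family the differences run from 0.307 for let-7b-5p to -0.568 for let-7f-5p, and the miR-17 cluster holds called miRNAs of both signs.

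The miR-17 cluster on chromosome 14, an oncogenic polycistron that promotes growth, had calls in both directions. Its 5 members with a detected strand, miR-17-5p, miR-17-3p, miR-20a-5p, miR-19b-3p and miR-92a-3p, gave 2 higher, 2 lower and 1 not called, while 30.9% of all miRNAs tested were called. miR-92a-3p, at chr14:115044476-115044496 (GRCm38.p6, plus strand), was at 0.704, 0.674, 0.754, 0.639 and 0.816 in SD mice and at 0.923, 0.963, 0.776, 0.954 and 0.948 in CR mice. All CR mice but mouse 3 were above all SD mice, and the difference was 0.195 ± 0.0567 (adjusted p = 0.0210) and 0.224 without CR mice 2 and 3 (adjusted p = 0.0316). When centred without division by the SD it was 0.144 (adjusted p = 0.152). miR-19b-3p, from just upstream at chr14:115044358-115044380, was at 0.730, 0.831, 0.825, 0.778 and 0.717 in SD mice and at 0.671, -0.123, -0.140, 0.422 and 0.606 in CR mice. The groups did not overlap, and the difference was -0.489 ± 0.137 (adjusted p = 0.0191). But miR-19b-3p was not detected on all CR arrays. With the total gene signal its difference was -2.88 on the log2 scale and did not pass (adjusted p = 0.133). miR-20a-5p fell by 0.253 ± 0.0881 (adjusted p = 0.0432). Neither fall passed without CR mice 2 and 3, with -0.210 for miR-19b-3p (adjusted p = 0.0847) and -0.0958 for miR-20a-5p (adjusted p = 0.354). miR-17-3p differed by 0.0478 (adjusted p = 0.0353), within the range of undetected miRNAs. miR-17-5p differed by -0.0209 (adjusted p = 0.183). miR-19b-3p and miR-92a-3p also have copies in the cluster on the X chromosome, so their levels sum over loci. Of the family of miR-17-5p by seed (AAAGUGC), 2 of 5 members were lower, miR-20a-5p and miR-106b-5p, and none was higher. Over all miRNAs tested 18.5% were lower and 12.4% higher.

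The other clusters are given against 30.9% called over all miRNAs tested. In the cluster of Mir25, Mir93 and Mir106b, 1 of 3 members was lower and none higher. None of 3 passed the limit in either of the clusters of miR-23, miR-27 and miR-24, or in that of miR-199a and miR-214. In the cluster of let-7e and miR-125a, none of the 3 counted members passed, which were let-7e-5p, miR-125a-5p and miR-125a-3p. That count leaves out miR-99b-5p, which lies just before let-7e on the same strand and was called higher (0.0922). Of the clusters not yet described, that of Mir30c-1 and Mir30e had 1 of 3 lower (miR-30e-5p) and that of Mir15b and Mir16-2 had 1 of 2 lower (miR-16-5p). RefSeq lists 2 loci for miR-16-5p, so its fall cannot be assigned to this cluster. The X-linked cluster that holds Mir363 and Mir92-2 had 1 higher and 1 lower of 3, which are miR-92a-3p and miR-19b-3p again. In all there were 20 clusters and 15 seed families with 2 or more members. Members of families and clusters are not replicates, since they share sequence or transcript.

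The 2 arms of a hairpin come from 1 precursor, and the ratio of their signals is the same when all signals of an array are multiplied by 1 factor. Both arms were detected on all 10 arrays for 6 hairpins. For miR-193a, the 5p arm was near background, with 7.93 to 13.0 units of total gene signal in SD mice and 10.1 to 17.2 in CR mice, and its rise was among those that cannot be told apart from the shift of miRNAs without signal. The log2 ratio of 5p to 3p total gene signal was -5.06, -5.10, -5.0, -5.36 and -4.68 in SD mice and -4.16, -2.53, -2.51, -3.81 and -4.30 in CR mice. Every CR mouse was above every SD mouse, with a difference of 1.58 on the log2 scale (exact permutation test, two-sided, p = 0.00794, the smallest that 5 against 5 mice can give; 0.0238 after Benjamini-Hochberg over 6 hairpins). The 3p arm was lower by 0.469 ± 0.137 in z-score (adjusted p = 0.0213), and by 0.207 without CR mice 2 and 3 (adjusted p = 0.136). With the 5p arm this near background, no change in the use of the arms can be read from this ratio. The ratio for miR-30a was 3.96 ± 0.0928 in SD and 3.69 ± 0.0999 in CR (mean ± SD), again with no overlap, a difference of -0.27 and the same exact permutation p of 0.00794. With z-scores of both arms the difference for miR-30a was -0.274 and did not pass (exact permutation p = 0.119 after adjustment). For miR-125a the log2 ratio was higher in CR by 0.95 (exact permutation p = 0.0317, 0.0635 adjusted), and the ratios of miR-139, miR-1897 and miR-199a gave adjusted exact permutation p-values of 0.107, 0.133 and 0.175. A ratio of 2 probes has no meaning as a level, since probes differ in how well they bind, so only its change between groups is given.

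**Figure D4:**
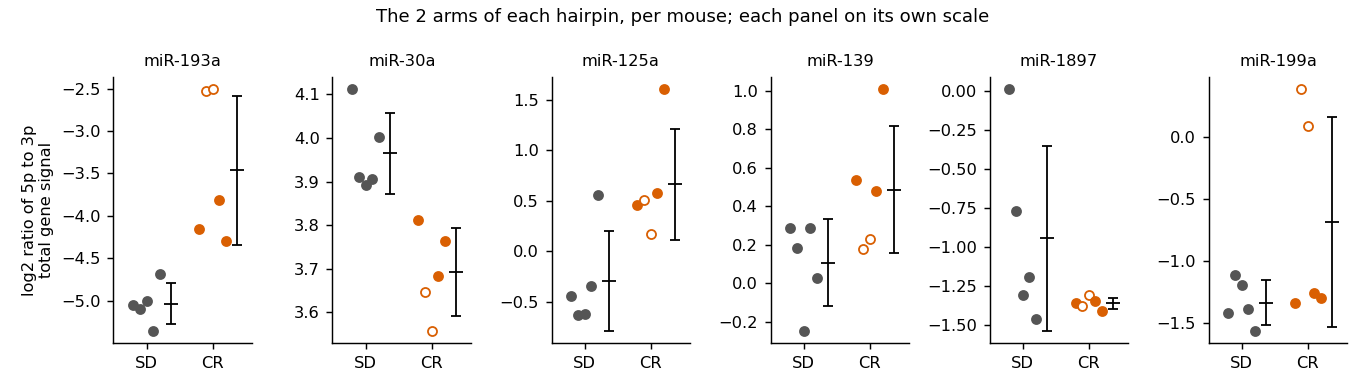
log2 ratio of 5p to 3p total gene signal in each mouse (y axis, on a separate scale in each panel) for the 6 hairpins with both arms detected on all SD and CR arrays, with mean ± SD of 5 mice beside the points; open points are CR mice 2 and 3. For miR-193a and miR-30a no CR mouse falls within the SD range, and for miR-193a CR mice 2 and 3 lie farthest from it.

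By signal, the 172 miRNAs were put into 4 tiers of 43. In the brightest tier 3 were higher and 11 lower, in the next 4 and 9, in the next 4 and 5, and in the dimmest 10 and 8. The median difference was -0.0472, -0.0270, -0.0228 and 0.0167 from the brightest tier to the dimmest. Over all miRNAs tested 12.4% were higher and 18.5% lower. The dimmest tier was the only one in which more miRNAs were called higher than lower, and its median lay below that of the 470 undetected miRNAs, 0.0284. Only 14 of its 43 miRNAs were detected on all 10 arrays, against 43, 42 and 40 in the other tiers. Most of the dimmest tier was thus included through 1 group only, and its counts depend on that rule. miR-122-5p, the brightest miRNA without a release suffix, was at 6.07 ± 0.214 in SD and at 6.29 ± 0.0985 in CR, and the difference of 0.217 ± 0.113 did not pass (adjusted p = 0.155). As a share of the summed total gene signal of the array it was 10.02% ± 2.33 in SD and 13.5% ± 1.55 in CR (exact permutation p = 0.0397, 0.0556 after adjustment over 4 shares). This share depends on the rest of the sum, in which miR-1937b_v16.0 went from 39.6% in SD to 18.8% in CR. A rise of miR-122-5p apart from that fall was not tested. When centred without division by the SD, the difference of miR-122-5p was -0.244 (limma adjusted p = 0.426).

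Names that end in a release number of the miRNA database, such as _v16.0, mark entries of an earlier release. There were 17 of these, 3 higher and 4 lower, near the 12.4% and 18.5% over all miRNAs tested. They held 69.4% ± 4.87 of the summed signal in SD and 62.9% ± 3.59 in CR (exact permutation p = 0.0556). They include the largest differences in the data. miR-720_v18.0, later recognised as a tRNA fragment, fell by 1.57 ± 0.405 (adjusted p = 0.0154). miR-1937b_v16.0, the brightest of all, was at 7.72, 8.46, 7.76, 8.33 and 7.35 in SD mice and at 6.78, 6.20, 6.41, 7.09 and 7.08 in CR mice, with no overlap and a difference of -1.21 ± 0.280 (adjusted p = 0.0106). Its share of the summed signal was 39.6% ± 7.81 in SD and 18.8% ± 5.99 in CR (exact permutation p = 0.00794, adjusted 0.0317). miR-1937c_v16.0 and miR-1939_v16.0 fell by 1.24 and 0.644, also with no overlap. miR-5097, which has no suffix, fell by 1.29 ± 0.281 (adjusted p = 0.00963). In the other direction, miR-2146_v15.0 rose by 0.654 ± 0.179 (adjusted p = 0.0179) and miR-2135_v15.0 by 0.496 ± 0.178 (adjusted p = 0.0444), and in both CR mouse 5 lay within the SD range. Neither passed without CR mice 2 and 3, at 0.384 (adjusted p = 0.158) and 0.214 (adjusted p = 0.252), or when centred without division by the SD, at 0.160 (adjusted p = 0.509) and 0.172 (adjusted p = 0.452). miR-2135_v15.0 passed in only 3 of the 10 fits that left out 1 mouse, and was at 0.314 without CR mouse 3 (adjusted p = 0.087), and without CR mouse 2 alone miR-2146_v15.0 did not pass either (adjusted p = 0.0518). Unlike in most miRNAs that fell, CR mice 1, 4 and 5 were all below every SD mouse in miR-1937b_v16.0, miR-1937c_v16.0, miR-1939_v16.0 and miR-5097. Even so, none of these passed without CR mice 2 and 3, with differences of -0.939, -0.950, -0.593 and -0.915 and adjusted p-values of 0.0894, 0.0629, 0.116 and 0.0703, and nor did miR-720_v18.0 (-1.21, adjusted p = 0.116).

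The base composition of the mature strand differed between the miRNAs that rose and those that fell. The relation was examined after the differences had been seen, and it is given as a description only. A RefSeq mature sequence was found for 134 of the 172 miRNAs, 86.5% of the 155 whose name has no release suffix. The median share of G and C bases was 54.5% in the 17 of them that were higher, 40.9% in the 27 that were lower and 47.8% in the 90 not called. Over all miRNAs tested 12.4% were higher and 18.5% lower. Of the 45 miRNAs with 40.9% or less, 2 were higher and 17 lower, with a median difference of -0.0876. Of the 48 with 52.2% or more, 11 were higher and 2 lower, with a median difference of 0.0341. miR-26b-5p, with 33.3%, and miR-101a-3p, also with 33.3%, are among the first, and miR-99b-5p, with 63.6%, and miR-423-5p, with 56.5%, are among the second. Across the 134 miRNAs, which share the same 10 arrays and are not independent, Pearson's r between this share and the difference was 0.327 and Spearman's rho 0.419. Over the other 7 scalings r was 0.306 to 0.454. Within the 4 signal tiers it was 0.354, 0.323, 0.492 and 0.431.

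By mouse, the contrast was uneven. The median deviation from the SD mean was taken over the miRNAs with the most and with the fewest G and C bases, and the first minus the second was 0.0723, 0.241, 0.282, 0.0945 and 0.0164 in CR mice 1 to 5. SD mice were between -0.0376 and 0.0324, and Met mice between -0.0869 and -0.0242. CR mice 2 and 3 were far above all other mice, and CR mouse 5 was within the SD range. Without CR mice 2 and 3, r was 0.117 and rho 0.219. With the slide in the model r was 0.315, and between the Met arrays of slide 2 and slide 1 it was -0.0683. Whether base composition, probe binding or the state of the RNA had a part in the differences was not tested.

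**Figure D5:**
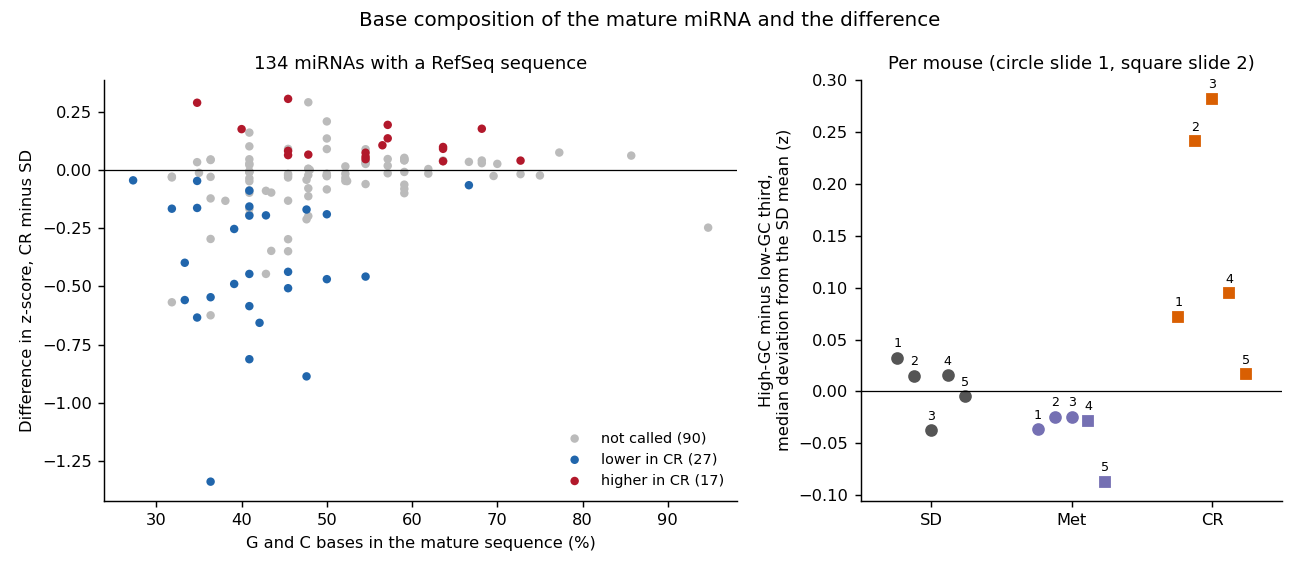
Left, difference in z-score, CR minus SD (y axis), against the share of G and C bases in the mature sequence (x axis, %) for 134 miRNAs; right, for each mouse, the median deviation from the SD mean of the miRNAs with the highest shares minus that of the miRNAs with the lowest (y axis, z-score), with circles for slide 1 and squares for slide 2. CR mice 2 and 3, at 0.241 and 0.282, lie above all other mice, and the Met arrays of slide 2 lie below 0.

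Markers of the cell types of the liver were counted as lists, and in whole liver fewer cells of a type and less RNA per cell cannot be told apart. Of the 5 hepatocyte miRNAs, 4 were lower (miR-101a-3p, miR-148a-3p, miR-192-5p and miR-194-5p) and miR-122-5p was not called, against 18.5% lower over all miRNAs tested. Only miR-101a-3p of the 4 kept its call without CR mice 2 and 3. The summed total gene signal of all 5 hepatocyte miRNAs, with miR-122-5p included, was 19466 to 30576 in SD and 10572 to 28275 in CR. Of 2 endothelial miRNAs, miR-126-5p was lower by 0.151 ± 0.0401 (adjusted p = 0.0154) and miR-126-3p differed by -0.348 (adjusted p = 0.156), with sums of 620 to 886 in SD and 215 to 839 in CR. None of 5 stellate cell and fibroblast miRNAs passed, with sums of 171 to 229 and 60.6 to 336. Of 6 leukocyte and Kupffer cell miRNAs, 4 were among those described here and 1 was lower, miR-142-3p, by 0.162 ± 0.0434 (adjusted p = 0.0159), with sums of 131 to 246 and 28.0 to 213. Neither miR-126-5p nor miR-142-3p passed without CR mice 2 and 3 (adjusted p = 0.114 and 0.151), and each was detected on 3 of 5 CR arrays. The erythroid miR-451a was at 1.55 ± 0.35 in SD and 0.921 ± 0.847 in CR (adjusted p = 0.144), and the sum of that list was 265 to 726 in SD and 33.8 to 788 in CR. Of 6 biliary miRNAs, 2 were among those described and neither passed, and miR-200c-3p, miR-141-3p and miR-429-3p were detected on no array. Their sums were 76.2 to 96.5 in SD and 47.1 to 126 in CR. The sums were not scaled between arrays, and CR mice 2 and 3 had the dimmest arrays.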

How the data were processed

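Liver RNA of 5 SD, 5 CR and 5 Met mice was hybridized to 1-color Agilent mouse miRNA arrays and read with Feature Extraction 11.5.1.1. The authors deposited 1 scanner file per array, with linear spot intensity that had not been normalized between arrays, together with software flags of 0 or 1 for detected miRNAs and outlier spots. They also deposited a score for each spot, and recomputing showed that these scores equal the z-score of the natural log of the median spot signal, taken within each array and over control spots too, to within 0.0005. No miRNA spot was saturated.

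All z-scores here come from those scanner files. Outlier spots were dropped, spots were averaged to probes and probes to miRNAs. The 178 of 696 miRNAs with detection throughout any of the 3 groups entered the test. CR was compared with SD by limma (version 3.58.1, R 4.3.3), fitted to all 15 arrays together with a variance trend, and p-values were adjusted by Benjamini-Hochberg at 0.05. The total gene signal is the software's sum over the probes of a miRNA. Ratios of arms and shares of signal were tested with exact permutations, two-sided, of which there are 252 for 5 against 5 mice. Families share bases 2 to 8 of the mature RefSeq sequence, matched by name for 134 miRNAs, 3 of them through a synonym, and clusters are miRNA genes within 10 kb of their neighbor on 1 strand. Other steps and plots used Python 3.11.15 with pandas 2.3.3, numpy 2.4.6, matplotlib 3.10.9 and scipy 1.17.1. Precision is limited by 5 arrays per group, and nothing was pooled.

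Named miRNAs are the 8 lowest and 8 highest called differences, the member with the largest difference in each family or cluster of 3 or more, members of the marker lists, both arms of the called hairpins and the 5 brightest. Other let-7 and miR-29 members, both arms of miR-17 and miR-193a, miR-19b-3p, miR-20a-5p, miR-106b-5p and further miRNAs in counts and examples were named after their values had been seen. The miRNAs, lists and tests were chosen with earlier results of these data known. The replicate numbers did not pair the mice, since the deviations of equally numbered CR and SD arrays correlated between -0.344 and 0.347. On simulated data with 178 miRNAs in 20 runs, the fit recovered 69.2% of changes of 0.25 in z-score, 87.2% of 0.5 and 98.2% of 1, and 3.2% of its calls were false. The simulated noise was independent between miRNAs and equal in all groups, with no slide difference and no dim arrays. In the data the spread was unequal, as for miR-192-5p with an SD of 0.799 in CR and 0.169 in SD mice. These rates therefore do not give the share of false calls in the data. Alternatives were other scalings, the deposited table, normexp with an offset of 50, the brightest probe, other filters, the slide or replicate number as a block, and leaving out mice. Leaving out CR mice 2 and 3 together, centering without division by the SD, and the total gene signal with the slide block were added after the data had been seen.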

Additional observations from a re-analysis of the deposited data

Results flagged for a closer look

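In 4 of 152 groups of 5 mice, taken over the 76 named miRNAs, 1 mouse lay so far from the other 4 that its gap to the nearest of them, divided by the range of the group, was above Dixon's critical value of 0.71. Chance gives about 1 in 20. miR-92a-3p in CR mouse 3 was at 0.776, against 0.923 to 0.963 in the other CR mice. miR-2138_v15.0 in SD mouse 1 was at 5.49, against 4.65 to 4.73 in the other SD mice. SD mouse 5 stood apart for the neighbouring miR-125a-5p, at 0.225 against -0.000193 to 0.0382, and let-7e-5p, at 0.268 against 0.0552 to 0.103.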

How the results depend on the processing

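Of all miRNAs tested, 55 were called (22 higher in CR and 33 lower). With the detected probes' 75th percentile as the scale this count was 100 (75 higher). It was 0 (0 higher and 0 lower by limma, with 53 at an unadjusted p up to 0.05) with the 75th percentile of all probes, 23 (8 lower) with the median-centred total gene signal, 25 (8 higher and 17 lower) with SD and CR arrays only, 228 (192 higher) without a filter, and 36 (21 lower) with detection on all arrays. The number higher was 48 with quantile normalization and 41 with z-scores over detected miRNAs. Under the limits of the study's methods for p, adjusted p and Z ratio it was 31 (5 higher) with limma and 27 (5 higher) with the pairwise z-test. With the slide as a block it was 1 (0 higher and 1 lower), and with the slide block on total gene signal 0 (0 higher and 0 lower by limma). Without CR mice 2 and 3 it was 10 (6 higher and 4 lower). Leaving out 1 mouse at a time gave 24 to 74 called, 7 to 27 higher and 17 to 47 lower, with 24 without CR mouse 2, 33 without CR mouse 3 and 33 without SD mouse 3. The cause of these changes was not tested.

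The replicate numbers did not pair the mice, and with the replicate block 51 were called (18 higher and 33 lower). Only 1 of the 5 CR mice correlated best with the SD mouse of its own number.

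The tier medians are those in the report unless given here, from the brightest tier (tier 1) to the dimmest (tier 4). They were 0.338, 0.352, 0.261 and 0.323 with the 75th percentile of detected probes. For tiers 2 to 4 they were 0.119, 0.0312 and 0.213 with the 75th percentile of all probes, 0.0879, 0.0158 and 0.0276 with quantile normalization, 0.189, 0.0675 and 0.243 with the total gene signal, and 0.279, 0.196 and 0.0921 with its slide block. For tiers 3 and 4 they were 0.0354 and 0.0596 with z-scores over detected miRNAs. Tier 4 was at 0.00752 with the brightest probe, 0.00662 with normexp, -0.0143 with the slide block, 0.0347 with detection on all arrays, 0.00711 without CR mice 2 and 3, 0.0281 when centred without division by the SD, and 0.00835 to 0.0188 when 1 mouse was left out.

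Of the 6 hairpins, 2 had a called ratio, 1 (miR-193a) when z-scores of both arms were used and 1 to 4 when 1 mouse was left out. With the median spot signal minus background, the difference in the share of the 10 brightest was -5.43 percentage points and that of the entries with a release suffix -8.15. Leaving out 1 mouse gave 3.04 to 4.49 for miR-122-5p, -3.97 to -2.49 for the 10 brightest, -8.45 to -5.24 for the entries with a release suffix and -23.6 to -18.5 for miR-1937b_v16.0.

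Among the named miRNAs that were called, 2 changed direction, miR-680 (0.00514 when z-scores were taken over detected miRNAs, 0.0400 for the total gene signal under a slide block) and miR-452-5p (-1.52 under that block). Of the called rises, miR-1906, miR-92a-3p, miR-1187, let-7b-5p, miR-2135_v15.0 and miR-2146_v15.0 did not pass when centred without division by the SD, at 0.155, 0.144, 0.260, 0.114, 0.172 and 0.160. The named miRNAs that changed direction and were not called are given here. The values were 0.354 (miR-24-3p), 0.0141 (miR-30a-5p), 0.294 (miR-30a-3p), 0.400 (let-7d-5p), 0.00613 (let-7g-5p), 0.247 (let-7i-5p), 0.261 (miR-342-3p), 0.136 (miR-148b-3p) and 0.0952 (miR-98-5p) with the 75th percentile of detected probes. They were 0.120 (miR-24-3p), 0.0602 (miR-30a-3p), 0.166 (let-7d-5p), 0.0272 (miR-342-3p) and 0.0135 (let-7i-5p) with that of all probes, and 0.257 (miR-24-3p), 0.0158 (miR-30a-3p), 0.312 (let-7d-5p), 0.0248 (let-7g-5p), 0.00806 (miR-342-3p) and 0.0763 (let-7i-5p) with quantile normalization. With z-scores over detected miRNAs they were 0.0398 (miR-24-3p), 0.0120 (miR-143-3p), 0.0185 (miR-199a-5p), 0.0376 (miR-30a-3p), 0.0859 (let-7d-5p), 0.00717 (let-7i-5p), 0.0284 (miR-98-5p), 0.0301 (miR-342-3p), 0.0438 (miR-148b-3p) and 0.0324 (miR-17-5p). The total gene signal gave 0.169 (miR-24-3p), -1.95 (miR-200b-3p), 0.120 (miR-30a-3p), 0.227 (let-7d-5p), 0.0797 (miR-342-3p), 0.137 (miR-148b-3p) and 0.0707 (let-7i-5p), and its slide block gave 0.203 (miR-24-3p), -4.30 (miR-200b-3p), 0.275 (miR-30a-3p), 0.439 (let-7d-5p), 0.172 (miR-148b-3p) and 0.166 (let-7i-5p). The slide block gave -0.0635 (miR-125a-5p), -0.0216 (miR-200b-3p), 0.0226 (let-7d-5p), -0.0165 (let-7e-5p) and 0.00086 (miR-98-5p). Leaving out CR mice 2 and 3 gave 0.0580 (miR-24-3p), 0.00243 (miR-126-3p), 0.0493 (miR-143-3p), 0.0232 (miR-30a-3p), 0.154 (let-7d-5p) and 0.0456 (let-7i-5p). Centering without division by the SD gave -0.244 (miR-122-5p), -0.131 (miR-2138_v15.0), -0.0568 (miR-2141_v15.0), -0.184 (let-7a-5p), -0.0423 (let-7c-5p), 0.00377 (miR-148b-3p) and -0.171 (miR-29a-3p). let-7d-5p was at 0.0310 with the brightest probe and 0.0326 with normexp. With 1 mouse left out the ranges were -0.125 to 0.00769 for miR-24-3p, -0.0477 to 0.00436 for miR-30a-3p, -0.0116 to 0.123 for let-7a-5p, -0.0616 to 0.0599 for let-7d-5p and -0.0255 to 0.129 for miR-29a-3p.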
